A study of Homo sapiens with 10 samples.

Results

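Kinesins are motor proteins that walk along microtubules by hydrolysing ATP. Here the family was taken as the genes of the deposited expression table whose symbol is KIF or KIFC followed by a digit. This gave 43 of the 20030 genes in the table. By their known main roles they were divided into 14 mitotic kinesins, 17 transport kinesins, 11 kinesins of cilia and other functions, and KIF1BP, a binding partner that is not a motor. RNA came from the human liver cancer cell lines that the labels call Huh7, PLC and 97H. There were 10 libraries, 1 for each line and treatment. The control, which received vehicle, and the CDK4/6 inhibitor were sequenced in all 3 lines, and the XPO1 inhibitor, named KPT330 in the titles, and the combination of both inhibitors in PLC and 97H. The CDK4/6 inhibitor is not named, and the sources used here give no doses or times. CDK4 and CDK6 are the kinases that with cyclin D release the block on entry into S phase, and XPO1 exports proteins and RNAs from the nucleus.

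Mitotic kinesins build and focus the spindle, move chromosomes, trim microtubule ends and carry cytokinesis factors to the midzone, and dividing cells make their transcripts mainly in G2 and mitosis. Transport kinesins carry vesicles, organelles and RNAs along the microtubules of non-dividing cells too, mostly towards the plus end. In hepatocytes, polarised secretion and endosome traffic depend on such motors.

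Levels are FPKM, sequenced fragments counted per unit of transcript length and of library size, which allows levels of different genes to be compared per length. Of the 43 genes, 26 reached an average of 1 FPKM across the 10 libraries and were tested. These were 9 of 14 mitotic kinesins, 12 of 17 transport kinesins, 4 of 11 of the third group, and KIF1BP. Differences are on the log2(FPKM + 1) scale, which understates changes of genes at low levels, and were tested with limma with the cell line as a block. A gene was called at a Benjamini-Hochberg adjusted p under 0.05 over all 10477 tested genes. The replicate is the cell line, with 1 library per line and treatment, so a p-value measures only the spread of treatment effects between 2 or 3 lines. Standard errors (SE) are pooled over the treatments of a fit.

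Per library, 14033 to 15264 genes were above 0 FPKM, and the median FPKM of tested genes was between 6.04 and 8.44. Absolute depth is unknown. Hepatocyte markers, 8 genes, summed to 6614 to 9088 FPKM in Huh7, to 775 to 2338 FPKM in PLC and to 26.4 to 60.6 FPKM in 97H, so their sum is low in 97H. Most of the PLC sum was SERPINA1, at 662 to 1759 FPKM. SERPINA1, APOA1, APOA2, HNF4A and FGB were higher in every PLC library than in any of 97H, while ALB, TTR and AFP overlapped. Summed over 5 fibroblast and stellate genes, markers were at or below 0.683 FPKM in PLC, 18.6 FPKM in the Huh7 control and 63.3 FPKM with the CDK4/6 inhibitor, and in 97H 3.58 FPKM in control and 30.7 FPKM with the combination, mainly through LUM. Summed over 3 endothelial genes they were 0.0339 to 4.26 FPKM, and over 4 cholangiocyte genes 474 and 582 FPKM in Huh7, 14.5 to 29.7 FPKM in PLC and 427 to 673 FPKM in 97H. The Huh7 and 97H sums were mainly KRT19. Between PLC and 97H, KRT7 went the way of KRT19 and SOX9 overlapped. EPCAM went the other way, at 9.11 to 24.5 FPKM in PLC and 0.0397 to 0.241 FPKM in 97H. Of 4 leukocyte genes, the defining genes PTPRC and CD3E were at or below 0.0350 FPKM in every library, while LYZ and CD68 were detected, in PLC at 17.8 and 22.7 FPKM in control and 91.8 and 127 FPKM with the combination. The part of these markers in the kinesin results was not tested.

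The promoters of 6 genes are shown first: the 4 mitotic kinesins called below, which moved together, and the transport kinesins KIF3C and KIF5B. With the combination against control, KIF3C had a log2 difference of 1.57 and KIF5B of -0.23, and neither was called. KIF5B thus did not move opposite to the mitotic kinesins. Promoter sequences were matched for 35 of the 43 genes in RefSeq (GRCh38.p14), as windows from 250 bases before to 50 bases after the transcription start, written 5′ to 3′ on the gene's strand. Capitals mark matches, on either strand, to CCAAT and to TTTGAA or TTCGAA, the letters of the cell cycle genes homology region (CHR). The CHR is known as the element through which the DREAM and MuvB complexes act on many G2 and mitosis genes, often together with CCAAT boxes.
KIF2C, chr1:44739587-44739886, plus strand: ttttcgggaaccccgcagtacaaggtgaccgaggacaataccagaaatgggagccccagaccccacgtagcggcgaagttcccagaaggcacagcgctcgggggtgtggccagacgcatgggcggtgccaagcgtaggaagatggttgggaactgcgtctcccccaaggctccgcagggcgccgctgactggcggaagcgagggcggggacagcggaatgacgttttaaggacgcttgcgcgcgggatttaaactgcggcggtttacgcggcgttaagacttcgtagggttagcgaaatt
KIFC1, chr6:33391573-33391872, plus strand: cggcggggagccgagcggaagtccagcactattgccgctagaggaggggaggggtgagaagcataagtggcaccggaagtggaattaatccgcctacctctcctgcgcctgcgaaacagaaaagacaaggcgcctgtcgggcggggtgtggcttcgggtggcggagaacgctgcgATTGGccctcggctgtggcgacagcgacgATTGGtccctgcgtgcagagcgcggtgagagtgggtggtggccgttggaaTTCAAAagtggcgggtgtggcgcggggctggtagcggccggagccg
KIF20A, chr5:138178862-138179161, plus strand: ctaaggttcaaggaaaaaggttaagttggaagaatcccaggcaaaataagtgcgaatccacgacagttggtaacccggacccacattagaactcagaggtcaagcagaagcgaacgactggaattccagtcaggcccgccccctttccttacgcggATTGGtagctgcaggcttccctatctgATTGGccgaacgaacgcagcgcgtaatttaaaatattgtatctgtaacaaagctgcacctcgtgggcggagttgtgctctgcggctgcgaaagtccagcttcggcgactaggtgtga
KIF18B, chr17:44947724-44948023, minus strand: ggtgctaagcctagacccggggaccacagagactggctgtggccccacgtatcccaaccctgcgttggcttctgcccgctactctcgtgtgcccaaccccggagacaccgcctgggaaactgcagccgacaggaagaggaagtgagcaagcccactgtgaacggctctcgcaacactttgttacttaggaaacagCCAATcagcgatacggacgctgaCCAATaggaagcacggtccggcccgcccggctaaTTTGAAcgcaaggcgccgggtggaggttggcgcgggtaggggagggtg
KIF3C, chr2:25982448-25982747, minus strand: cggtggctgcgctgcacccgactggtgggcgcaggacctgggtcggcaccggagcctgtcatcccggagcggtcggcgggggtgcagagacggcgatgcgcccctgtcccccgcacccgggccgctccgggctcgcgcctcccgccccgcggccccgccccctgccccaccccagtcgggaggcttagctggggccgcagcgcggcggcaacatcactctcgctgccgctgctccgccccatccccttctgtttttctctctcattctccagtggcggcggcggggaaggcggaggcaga
KIF5B, chr10:32056376-32056675, minus strand: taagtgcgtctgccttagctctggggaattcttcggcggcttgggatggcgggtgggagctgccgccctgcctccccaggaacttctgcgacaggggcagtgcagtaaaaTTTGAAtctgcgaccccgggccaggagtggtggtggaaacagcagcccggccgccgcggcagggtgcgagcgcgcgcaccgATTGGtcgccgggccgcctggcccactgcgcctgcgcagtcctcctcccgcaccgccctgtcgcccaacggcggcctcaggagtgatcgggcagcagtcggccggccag

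CHR letters stood in the windows of 11 of 14 mitotic kinesins (78.6%) and of 1 of 12 matched transport kinesins (8.33%), KIF5B, against 19.5% of 27305 genes with a window of 300 bases. CCAAT, with ATTGG on the other strand, was found in 11 of 14 mitotic kinesins (78.6%) and 4 of 12 transport kinesins (33.3%), against 39.7% of all genes. In KIF18B the CHR letters lay at positions 2 to 7 after the start, with CCAAT at -55 to -51 and -32 to -28. KIFC1 held them at positions 4 to 9, with CCAAT on the other strand at -75 to -71 and -46 to -42. KIF20A held 2 CCAAT matches and no CHR letters, and KIF2C and KIF3C held neither. Letters of E2F sites (TTTCCCGC, TTTGGCGC, TTTCGCGC or TTTGCCGC, either strand) were found in 1 of 14 mitotic kinesins, KIF15, in 0 of 12 transport kinesins and in 3.99% of all genes. No matches of different motifs shared a base in these windows. A match is only a run of letters, and some members have more than 1 window and so more chances of one.

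With the combination, mitotic kinesins were at their lowest level and transport kinesins were not. Against control, 4 of 9 tested mitotic kinesins were called lower (KIF2C, KIFC1, KIF20A and KIF18B). Of 12 tested transport kinesins and the other 4 motors, 0 were called in either direction. Over all tested genes, 0.792% were called in this comparison and 0.487% were called lower. The median log2 difference was -2.19 over the 9 mitotic kinesins, 0.29 over the 12 transport kinesins and 0.07 over all tested genes. All 9 tested mitotic kinesins, and 0 of 12 transport kinesins, had their lowest level of the 4 treatments in the combination library of both PLC and 97H, as had 9.86% of all tested genes. The 4 untested mitotic kinesins above 0 FPKM did too, making 13 of 13. These 4 had means of 0.264 to 0.701 FPKM, and the share of untested genes with this order was not counted. One of them, KIF4B, can share reads with KIF4A. Both complete counts depend on the grouping, which was chosen with earlier results of these data known. KIF2A, a kinesin-13 that acts at spindle poles and also in neurons and cilia, was placed in the third group. With the combination its PLC level was 2.38 FPKM, above the control at 1.95 FPKM. In 97H the combination library was its lowest. Counted as mitotic, KIF2A would leave neither count complete. In bulk RNA, fewer cells in division and less RNA per dividing cell cannot be told apart.

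**Figure D1:**
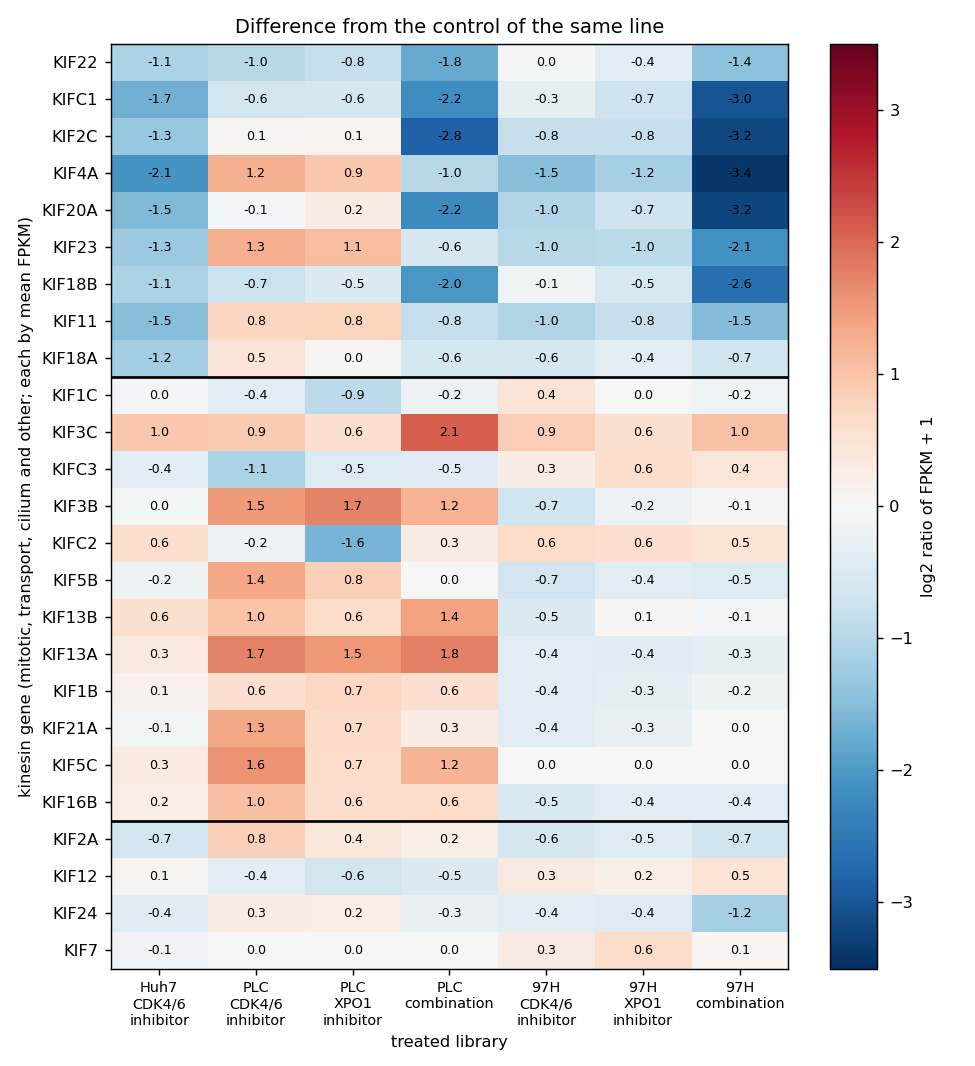
Log2 ratio of FPKM + 1 of each tested kinesin motor (rows, in groups divided by black lines: mitotic, transport, cilium and other) to the control of the same line, for the 7 treated libraries (columns), with blue lower and red higher. All 9 mitotic kinesins are below 0 in both combination columns and in Huh7 with the CDK4/6 inhibitor, while transport kinesins are mostly above 0 in PLC and more often below than above 0 in 97H, where KIF3C, KIFC2 and KIFC3 are above.

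KIF2C (MCAK) removes tubulin from microtubule ends at centromeres and so helps to correct wrong attachments; it lies on chromosome 1, 44739818 to 44767767 (GRCh38). Its level was 30.9, 18.1 and 23.0 FPKM in the Huh7, PLC and 97H controls, 11.8, 19.2 and 12.8 FPKM with the CDK4/6 inhibitor, 19.8 and 12.7 FPKM with the XPO1 inhibitor in PLC and 97H, and 1.67 and 1.62 FPKM with the combination. Both combination libraries lay below all the others, with no overlap, while the PLC values with the single inhibitors were close to the PLC control. How many of all tested genes have both combination libraries below all others was not counted, which holds for KIFC1, KIF20A and KIF18B below too. KIF2C fell by 3.01 (SE 0.39, limma adjusted p = 0.0227) with the combination against control, 10.8-fold in PLC and 14.2-fold in 97H in FPKM.

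KIFC1 (HSET) is a minus-end-directed motor that focuses spindle poles and clusters extra centrosomes (chromosome 6, 33391536 to 33409924). The controls of Huh7, PLC and 97H stood at 29.6, 24.2 and 33.0 FPKM, the CDK4/6 inhibitor at 8.49, 15.2 and 25.9 FPKM, the XPO1 inhibitor in PLC and 97H at 15.4 and 19.7 FPKM, and the combination at 4.59 and 3.19 FPKM. Each treated library was below the control of its line and the 2 combination libraries were lowest. The difference was -2.60 (SE 0.38, limma adjusted p = 0.0336).

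KIF20A (MKLP2) brings the chromosomal passenger complex to the central spindle (chromosome 5, 138178719 to 138187715). It measured 27.3, 8.22 and 14.3 FPKM in the Huh7, PLC and 97H controls, 8.67, 7.73 and 6.48 FPKM with the CDK4/6 inhibitor, 9.95 and 8.33 FPKM with the XPO1 inhibitor, and 0.955 and 0.641 FPKM with the combination. The combination libraries were the only ones below 1 FPKM, and in PLC neither single inhibitor moved the level far from control. The difference was -2.73 (SE 0.42, limma adjusted p = 0.0345).

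KIF18B, a motor of astral microtubule plus ends (chromosome 17, 44924709 to 44947711), was at 7.29, 7.84 and 8.19 FPKM in the Huh7, PLC and 97H controls. It stood at 2.84, 4.26 and 7.30 FPKM with the CDK4/6 inhibitor, at 5.22 and 5.29 FPKM with the XPO1 inhibitor in PLC and 97H, and at 1.17 and 0.484 FPKM with the combination. Controls were close together, and the combination libraries were again below every other one. The difference was -2.33 (SE 0.42, limma adjusted p = 0.0482).

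**Figure D2:**
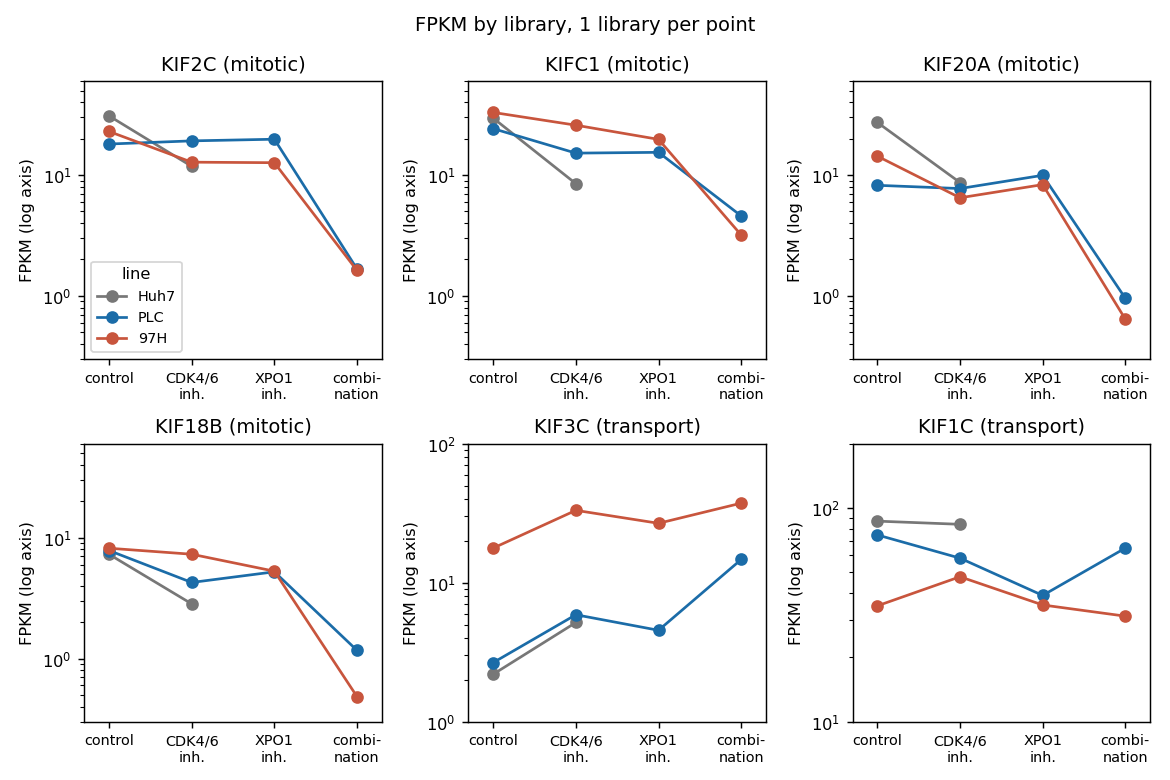
FPKM (log axis) of 4 mitotic and 2 transport kinesins by treatment, 1 library per point, with the libraries of a line joined (Huh7 grey, PLC blue, 97H red). The mitotic kinesins drop in both combination libraries, KIF3C is highest there in both lines, and KIF1C stays between 31.2 and 86.9 FPKM.

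The other 5 tested mitotic kinesins did not pass the test but had negative differences. KIF22 (Kid), the chromokinesin that pushes chromosome arms from the poles, had -1.61 (limma adjusted p = 0.0787), with 54.5 and 25.6 FPKM in the PLC and 97H controls and 15.2 and 8.81 FPKM with the combination. It passed in 6 of 17 alternatives (quantile normalization, GC and length trends removed, all 10 libraries in the model, and without the 97H control or the CDK4/6 inhibitor library of either line), with limma adjusted p from 0.00805 to 1.0 over all of them. KIF4A, which acts on chromosome arms and the central spindle, had -2.19 (adjusted p = 0.180). PLC had 5.03 FPKM in control and 2.06 FPKM with the combination, and 97H 45.1 and 3.36 FPKM, so the lines differed widely both in the control and in the size of the difference. KIF23 (MKLP1), the centralspindlin motor of cytokinesis, had -1.36 (adjusted p = 0.363), KIF11 (Eg5), which separates the poles, -1.17 (0.311), and KIF18A, which dampens chromosome movement at the metaphase plate, -0.66 (0.404). The last pair were at or below 5.30 FPKM in every library, a range where the pseudocount shrinks differences.

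The 4 calls rest on single libraries. Leaving out the PLC control, the PLC combination or the 97H combination library, the cell line from the model, or the filter on low values, left 0 mitotic kinesins called, and removing trends with transcript GC content and length gave 8. The 3 fits without one of those libraries leave 1 library of that treatment, which is assumed to vary like the others. Over 17 alternatives, KIF2C and KIF20A each lost the call in 5, KIFC1 in 6 and KIF18B in 9. KIFC1 and KIF18B also lost it without the 97H control. KIF18B lost it as well without either XPO1 inhibitor library and with a single prior variance (limma adjusted p = 0.0532). The mitotic median without 1 library ran from -2.59 to -1.79, and the transport median from -0.11 (without the PLC control) to 0.70 (without the 97H control).

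The 5 untested mitotic kinesins were low. KIF2B was listed at 0 in all 10 libraries. KIF14, a midbody motor, had 0.122 and 0.0559 FPKM in the PLC control and combination libraries and 0.345 and 0.0154 FPKM in those of 97H. KIF15, which can stand in for Eg5, had 0.453 and 0.0294 FPKM in PLC and 0.582 and 0.0993 FPKM in 97H, and KIF20B, which acts in abscission, 0.535 and 0.0965 FPKM and 0.871 and 0.225 FPKM. KIF4B is a close copy of KIF4A, so reads can be shared between them and its level, at most 0.995 FPKM, is uncertain.

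Transport kinesins showed no common direction across the lines: with the combination 10 of 12 were above control in PLC and 8 of 12 below it in 97H. KIF3C, a kinesin-2 motor subunit, was the only one of 17 at its highest level in the combination library of both lines. KIF26B and KIF6 of the third group, both untested, were highest there too. How many of all tested genes share this was not counted. KIF3C was at 2.20, 2.66 and 17.8 FPKM in the Huh7, PLC and 97H controls, 5.17, 5.89 and 33.2 FPKM with the CDK4/6 inhibitor, 4.55 and 26.8 FPKM with the XPO1 inhibitor, and 14.7 and 37.4 FPKM with the combination. Every treated library was above the control of its line, although 97H was above PLC throughout. The difference with the combination was 1.57 (SE 0.39, limma adjusted p = 0.141) and did not pass, but it was called after removal of GC and length trends (adjusted p = 0.0232) and with all 10 libraries in the model (adjusted p = 0.0436), the range over all alternatives being 0.0232 to 1.0.

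KIF3C can pair with other kinesin-2 subunits, which carry cargo in cilia and the cytoplasm. Its part of the summed FPKM of KIF3A, KIF3B and KIF3C was 34.2% in the PLC control and 53.2% with the combination, and 61.3% and 78.2% in 97H. KIF3B had 4.87, 15.6, 18.5 and 12.6 FPKM in PLC (control, CDK4/6 inhibitor, XPO1 inhibitor, combination) and 10.8, 6.23, 9.16 and 10.2 FPKM in 97H. It was lowest in the PLC control and highest in the 97H control, so the lines went in opposite directions. KIF3A stayed at 0.252 to 0.761 FPKM and was not tested.

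Among the kinesin-1 heavy chains, which carry vesicles and mitochondria with kinesin light chains, KIF5C had 1.82, 7.33, 3.44 and 5.48 FPKM in PLC in the same order of treatments, and at most 0.00662 FPKM in 97H. Its difference with the combination was 0.60 (limma adjusted p = 0.592), all of it from PLC. KIF5B, the chain that most cells use, had 3.90, 11.6, 7.79 and 3.97 FPKM in PLC and 3.99, 2.11, 2.84 and 2.57 FPKM in 97H. The PLC control and combination libraries were alike for KIF5B, with both single inhibitors above them.

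For the kinesin-3 motors, which carry endosomes and other vesicles, KIF13A had 1.60, 7.64, 6.44 and 7.81 FPKM in PLC and 6.55, 4.80, 4.64 and 5.08 FPKM in 97H. The combination difference was 0.72 (limma adjusted p = 0.689) and became -0.30 without the PLC control library. KIF13B had 0.66 (limma adjusted p = 0.642). KIF1C, the most abundant kinesin of the table at a mean of 55.7 FPKM, was at 74.9, 58.3, 39.0 and 65.0 FPKM in PLC and 34.9, 47.7, 35.2 and 31.2 FPKM in 97H. It made up 28.1% to 57.1% of the summed transport kinesin FPKM.

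The summed FPKM of the 14 mitotic kinesins was 126 in the PLC control, 108 with either single inhibitor and 29.5 with the combination. In 97H it was 164 in control, 98.8 and 91.5 with the CDK4/6 and XPO1 inhibitor, and 20.3 with the combination. Huh7 had 180 FPKM in control and 62.3 FPKM with the CDK4/6 inhibitor. The summed FPKM of the 17 transport kinesins stayed between 94.9 and 157 in all libraries. Mitotic kinesins thus made up 47.8% of kinesin motor FPKM in the PLC control and 15.5% with the combination, 60.9% and 14.8% in 97H, and 51.3% and 26.4% in Huh7 between control and the CDK4/6 inhibitor. Proliferation markers moved with these sums. The summed FPKM of MKI67, TOP2A, CCNB1, CDK1, PCNA and MCM2 was 245, 191, 236 and 48.3 in PLC (control, CDK4/6 inhibitor, XPO1 inhibitor, combination), 284, 169, 184 and 69.9 in 97H, and 413 and 115 in Huh7. None of the 6 was at 0, and 3 of 6 were called lower with the combination, against 0.487% of all tested genes. These were CCNB1, PCNA and MCM2 (limma adjusted p = 0.0321, 0.0345 and 0.0390). Without the line in the model no gene was called, these 3 included. With no filter on low values 1 gene was called in all, so at most 1 of these 3 kept the call. Like those of the kinesins, these calls rest on single libraries. The part of the 6 markers in the kinesin differences was not tested.

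**Figure D3:**
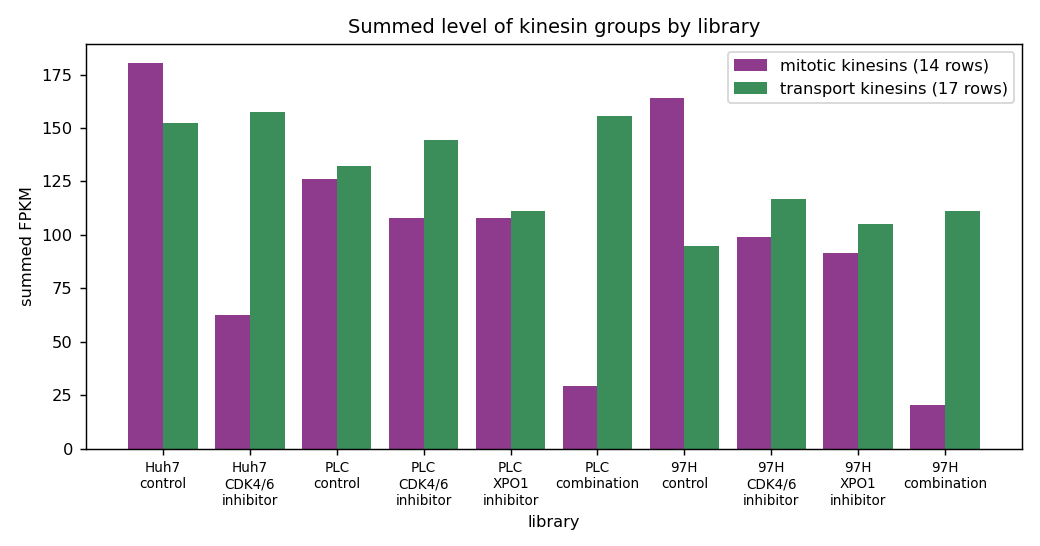
Summed FPKM of the 14 mitotic (purple) and 17 transport (green) kinesins in each of the 10 libraries. The mitotic bars are lowest in the PLC and 97H combination libraries, at 29.5 and 20.3 FPKM, while the transport bars stay between 94.9 and 157 FPKM.

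The CDK4/6 inhibitor alone gave no calls in limma over 3 lines (0% of tested genes, 922 at an unadjusted p under 0.05), and so 0 of 25 tested motors. All 9 tested mitotic kinesins had differences below 0, with a median of -0.68, and 11 of 12 transport kinesins above 0, with a median of 0.27, against 0.03 over all tested genes. With 1 library left out, the mitotic median ran from -1.04 (without the PLC control) to -0.36 (without either Huh7 library), and the transport median from -0.04 (without the PLC control) to 0.53 (without the 97H control). The smallest p among mitotic kinesins belonged to KIF20A at -0.89, KIF22 at -0.71, KIFC1 at -0.89 and KIF2C at -0.68, with limma adjusted p of 0.503, 0.503, 0.503 and 0.569. Among transport kinesins, KIF3C had 0.91 (limma adjusted p = 0.491), KIF5C 0.64, KIF13A 0.56 and KIFC3, a minus-end-directed motor of cell junctions, -0.40.

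The lines differed in size. In Huh7, all 13 detected mitotic kinesins were lower with the CDK4/6 inhibitor than in control, and the tested ones had a median log2 ratio of -1.32, from -2.07 for KIF4A to -1.11. The median was -0.80 in 97H, with 9 of 9 below 0. In PLC it was 0.08, with 5 of 9 above 0, against 0.18 over all tested genes there. For transport kinesins the Huh7 median was 0.20, that of PLC 1.02 and that of 97H -0.38. Whether the lines differ could not be tested with 1 library each.

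Within-line ratios followed transcript GC content across genes, and in opposite directions in PLC and 97H. Over 10438 tested genes, Spearman's rho between GC content and the ratio of the CDK4/6 inhibitor to control was -0.68 in PLC, 0.72 in 97H and 0.18 in Huh7. For the XPO1 inhibitor it was -0.72 in PLC and 0.47 in 97H, and for the combination -0.29 and 0.26. These are descriptions across genes, which are not independent, and all ratios of a line share 1 control library. Kinesins lay along this trend. In PLC the mitotic kinesins above control were KIF23, KIF4A, KIF11, KIF18A and KIF2C, with GC contents of 42.3%, 46.4%, 38.3%, 37.0% and 50.4%, and those at 57.9% to 58.9% (KIFC1, KIF18B, KIF22) were below it, with KIF20A, at 48.4%, just below. With GC and length trends removed, the mitotic median under the CDK4/6 inhibitor was -0.13 in PLC, -0.55 in 97H and -1.30 in Huh7. Under the combination it was -1.50 in PLC and -2.77 in 97H, against -1.78 and -2.63 as deposited.

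**Figure D4:**
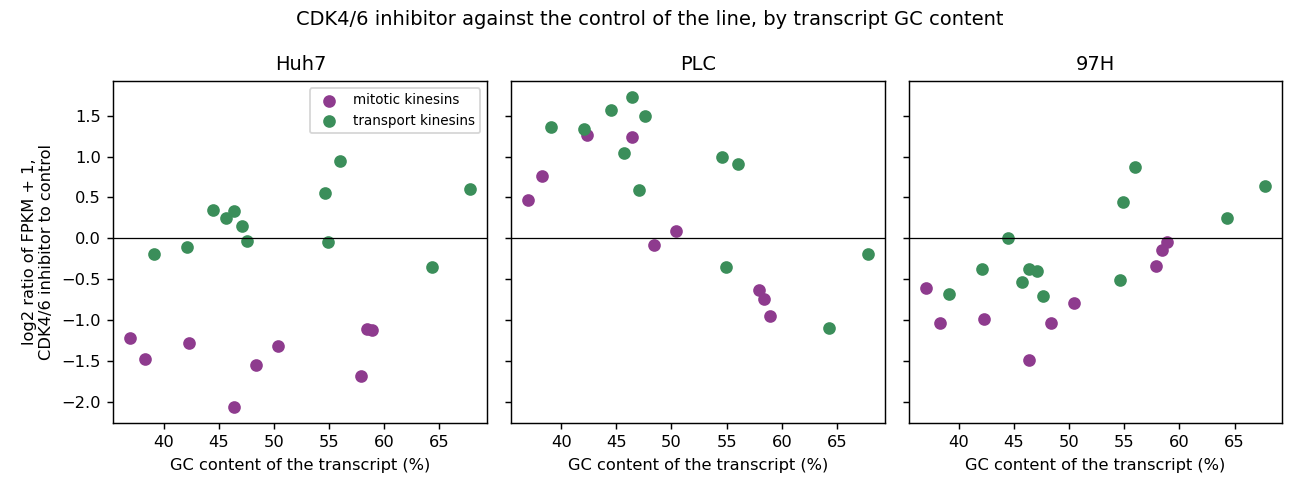
Log2 ratio of FPKM + 1 with the CDK4/6 inhibitor to the control of the line (vertical) against transcript GC content in percent (horizontal) for the 9 mitotic (purple) and 12 transport (green) tested kinesins in Huh7, PLC and 97H. In PLC the ratio falls with GC content in both groups and in 97H the ratios of high-GC kinesins mostly lie above those of low-GC ones, while in Huh7 all 9 mitotic kinesins lie at or below -1.11.

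The XPO1 inhibitor alone, in PLC and 97H, also gave no calls in limma (0% of tested genes, 258 at an unadjusted p under 0.05), hence 0 of 25 motors. The median difference was -0.23 for mitotic and 0.22 for transport kinesins, against 0.10 over all tested genes. Both changed sign with 1 library left out: the mitotic median ran from -0.70 (without the PLC control) to 0.09 (without the 97H control), and the transport median from -0.24 to 0.74 for the same libraries. The smallest p among mitotic kinesins were those of KIF22 at -0.62, KIFC1 at -0.67, KIF18B at -0.53 and KIF2C at -0.34, and among transport kinesins of KIF3C at 0.58, KIF3B at 0.76, KIF1C at -0.45 and KIF13A at 0.55, each with a limma adjusted p of 0.968. By line, the mitotic median was 0.13 in PLC, with 6 of 9 above 0, and -0.72 in 97H, with 9 of 9 below 0. KIF3B and KIF13A turned negative without the PLC control library, at -0.15 and -0.47.

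Whether the combination differs from each inhibitor was asked directly. Against the CDK4/6 inhibitor, no gene was called (0% in limma, 345 at an unadjusted p under 0.05). KIF2C had -2.66 (SE 0.39, limma adjusted p = 0.118), KIF20A -2.17 (0.223), KIFC1 -2.11 (0.202) and KIF18B -1.88 (0.380). Under 4 of the other settings KIF2C was called in this comparison, namely a pseudocount of 0.1, quantile normalization, median ratio scaling and removal of GC and length trends, with limma adjusted p of 0.0403, 0.0355, 0.0449 and 0.0175, the highest over all alternatives being 1.0. With GC and length trends removed, where 47 genes were called, KIF20A, KIFC1 and KIF18B were called too (limma adjusted p = 0.0188, 0.0336 and 0.0368). The transport kinesins of smallest p were KIF3C at 0.68, KIF5B at -0.57, KIFC3 at 0.41 and KIF13B at 0.41.

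Against the XPO1 inhibitor, again no gene was called (0% in limma, 520 at an unadjusted p under 0.05). KIF2C had -2.67 (SE 0.39, limma adjusted p = 0.158), KIF20A -2.50 (0.178), KIFC1 -1.93 (0.283) and KIF18B -1.80 (0.362). KIF3C had 0.98 (0.908), KIFC2 0.90, KIF5B -0.46 and KIF1C 0.28. KIFC2 shares 21.7% of its exon bases with FOXH1 on the opposite strand, and whether counting used the strand is not given in the sources used here, so its level is uncertain. These comparisons and those against control share libraries and are not independent.

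The interaction asks whether the combination differs from the sum of the separate differences. No gene passed (0% in limma, 60 at an unadjusted p under 0.05). It was -2.31 (SE 0.55) for KIF2C, -1.94 for KIF20A, -1.44 for KIFC1 and -1.36 for KIF18B, each with a limma adjusted p of 0.9999. All 9 mitotic kinesins and 7 of 12 transport kinesins were below 0. KIF5B had -0.80, KIF21A, a kinesin-4 that slows microtubule growth, -0.56, KIF5C -0.50 and KIFC2 0.68.

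Between the lines, the motors called were 2 transport kinesins and 3 of cilia and other functions. In limma with treatment in the model, PLC and 97H differed at 5 of 25 tested motors and at KIF1BP, against 44.3% of all tested genes. The 4 libraries of a line are 1 line under 4 treatments, not 4 cultures. None of 9 mitotic kinesins passed, the nearest being KIF22 at 0.63 and KIF4A at -1.12 (limma adjusted p = 0.0523 and 0.0636, PLC minus 97H), followed by KIF23 at 0.82 (0.123) and KIF11 at 0.40 (0.315). All 4 passed in some alternatives: KIF4A in 6 of 16 (among them quantile normalization, limma adjusted p = 0.0223, and median ratio scaling, 0.0117, over a range of 0.0117 to 0.174), KIF23 in 3, KIF22 in 2 and KIF11 in 1. Among left-out libraries, KIF4A passed without the CDK4/6 inhibitor library of either line, KIF23 without the control of either line and KIF11 without the 97H control. The summed liver markers above also separate these lines, though ALB, TTR and AFP overlapped between them. The part of these markers was not tested.

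KIF5C was higher in PLC by 2.34 (SE 0.27, limma adjusted p = 0.000146), with 1.82 to 7.33 FPKM against at most 0.00662 FPKM in 97H. KIF3C was lower in PLC, at -2.07 (SE 0.27, limma adjusted p = 0.000338), with 2.66 to 14.7 FPKM against 17.8 to 37.4 FPKM. Neither gene's values overlapped between the 2 lines, and how many of all tested genes share this was not counted. KIF7, the hedgehog pathway kinesin of the cilium tip, was listed at 0 in 3 of 4 PLC libraries and at 0.00919 FPKM in the other, and at 1.45 to 2.83 FPKM in 97H (limma adjusted p = 0.000113); its difference of -1.55 depends on the pseudocount. Huh7 had 2.86 and 3.17 FPKM of KIF7.

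KIF24, which restrains cilium formation at the centriole, was lower in PLC by a difference of -0.75 (limma adjusted p = 0.0223), with 0.438 to 1.11 FPKM against 0.906 to 3.27 FPKM. It was also the 1 gene outside the mitotic group, among the 11 of the third group, that was lowest in the combination library of both lines. KIF12, known from epithelial cells, was higher in PLC by 0.60 (limma adjusted p = 0.0288), at 0.584 to 1.48 FPKM against 0.0535 to 0.467 FPKM. Its highest levels were those of Huh7, at 6.35 and 6.86 FPKM. The KIF12 call was lost in 5 of 15 alternatives (no filter, a single prior variance, and without the PLC control, the 97H control or the PLC library of the XPO1 inhibitor), with limma adjusted p from 0.00651 to 0.0803 over all of them. That of KIF24 was lost in 3 of 16 (no filter, and without the XPO1 inhibitor library of either line), over a range of 0.00445 to 0.0890. KIF1BP was higher in PLC by 0.98 (limma adjusted p = 0.0370), with 5.23 to 16.6 FPKM against 4.69 to 5.40 FPKM. The PLC and 97H controls were alike for KIF1BP, at 5.23 and 5.29 FPKM, and the treated PLC libraries were at 11.6 to 16.6 FPKM. The number of motors called ran from 3 without the PLC library of the XPO1 inhibitor to 10 without the 97H control, and was 9 without the PLC control.

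The mean levels per line of the remaining tested kinesins are given in the order Huh7, PLC, 97H. KIF13B was highest in Huh7, at 16.4 FPKM against 4.34 and 1.91 FPKM. KIF5B had the same order of lines, with 10.6, 6.82 and 2.88 FPKM, and so did KIF1C with 85.4, 59.3 and 37.2 FPKM and KIF21A with 4.58, 2.01 and 1.04 FPKM. KIFC2 was lowest in Huh7, at 2.67 FPKM against 10.5 and 7.93 FPKM, as was KIF13A at 1.64 against 5.87 and 5.27 FPKM. KIFC3 had 9.91, 15.1 and 8.10 FPKM, KIF3B 11.8, 12.9 and 9.08 FPKM, KIF1B, which carries mitochondria and vesicles, 3.75, 3.88 and 2.27 FPKM, KIF16B, an early endosome motor, 1.56, 1.07 and 1.57 FPKM, and KIF2A, a kinesin-13 of spindle poles and neurons, 5.57, 2.86 and 3.5 FPKM. The mean of Huh7 is over 2 libraries, control and CDK4/6 inhibitor, and those of PLC and 97H are over 4, so the means are side by side as descriptions.

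The split of variation between treatment and line separates the groups. Over the 8 libraries of PLC and 97H, treatment took a median of 72.7% of the sum of squares of log2(FPKM + 1) for the 9 mitotic kinesins and line 1.76%. For the 12 transport kinesins these were 16.5% and 50.8%, close to the 15.3% and 51.7% of all tested genes. Treatment exceeded line in 9 of 9 mitotic kinesins, 3 of 12 transport kinesins (KIFC2, KIF13A and KIF3B) and 32.1% of genes. In those 3 transport kinesins the rest was larger than treatment, at 58.8%, 70.3% and 62.3%. Treatment has more levels than line, so its share tends to be the larger for a gene with neither effect. The extremes were KIF2C, with 96.8% for treatment, and KIF7, with 95.2% for line. KIF3C had 74.4% for line and 22.1% for treatment, with 3.53% for the rest.

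**Figure D5:**
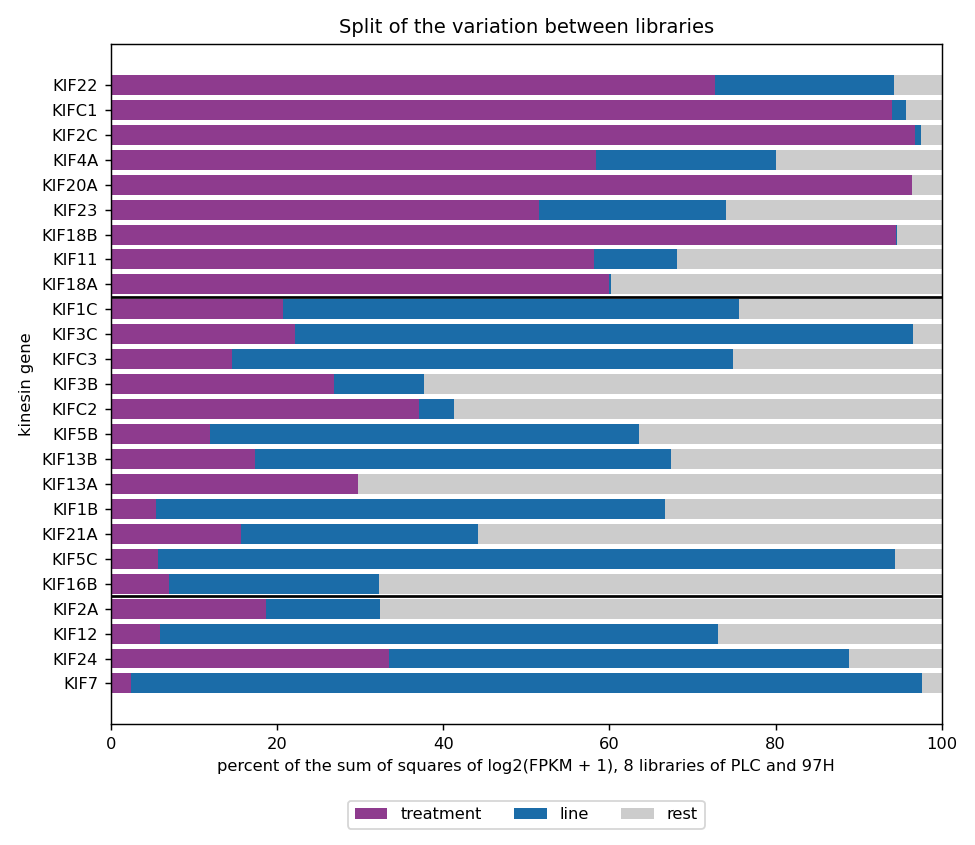
Percent of the sum of squares of log2(FPKM + 1) over the 8 libraries of PLC and 97H that goes with treatment (purple), line (blue) and the rest (grey), for each tested kinesin motor in the order mitotic, transport, cilium and other. Purple exceeds blue in all 9 mitotic kinesins and in 3 of 12 transport kinesins.

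The 17 untested kinesins were at a mean below 1 FPKM. Among transport kinesins, KIF21B, KIF17, KIF3A, KIF5A and KIF1A had means of 0.568, 0.544, 0.398, 0.272 and 0.0338 FPKM; these are kinesins known mainly from neurons or, for KIF3A and KIF17, also from cilia. KIF17 was at 0.544 to 1.45 FPKM in PLC and at most 0.527 FPKM in the other lines, and KIF5A at 0.217 to 0.686 FPKM in PLC and at most 0.0143 FPKM in 97H. In the third group 7 genes were untested, with means from 0.00402 FPKM for KIF19 to 0.581 FPKM for KIF9. KIF26B, an atypical kinesin, had 0.252 FPKM in the Huh7 control and 1.13 FPKM with the CDK4/6 inhibitor. KIF27, KIF26A, KIF6 and KIF25 stayed at or below 0.237 FPKM.

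Genes that work with the mitotic kinesins were compared under the combination too. Of 22 tested partners of mitotic kinesins, 4 were called lower, as were 0.487% of all tested genes. All 22 had differences below 0, with a median of -1.51 against 0.07 over all tested genes. BIRC5 and CDCA8, subunits of the chromosomal passenger complex that KIF20A carries, had -3.64 (limma adjusted p = 0.0176) and -2.36 (0.0287), and the kinases AURKB and PLK1 had -2.59 (0.0343) and -3.27 (0.0176). All 4 lost the call with no filter on low values, without the line in the model, without the PLC control and without the PLC combination library, and CDCA8, AURKB and PLK1 also without the 97H combination library. Each list of partners was drawn up with earlier results of these data known. None of 16 tested partners of transport kinesins passed, with a median of 0.36, and KLC4, a kinesin light chain, had 1.33 (limma adjusted p = 0.174).

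The track and the opposing motor were measured too. Of 14 tested tubulin genes, 1 was called lower with the combination (0.487% of all tested genes were), TUBA1B at -1.53 (limma adjusted p = 0.0461). TUBB4B at -1.19 (limma adjusted p = 0.107) and TUBG1 at -0.98 (0.208) did not pass, and the median was -0.09. The TUBA1B call was lost in 10 of 17 alternatives, among them median ratio scaling (limma adjusted p = 0.0700), a single prior variance (0.123) and each control, XPO1 inhibitor or combination library of PLC or 97H left out (0.0587 to 0.313), and over all 17 the adjusted p ran from 0.00822 to 1.0. Of 19 tested genes of cytoplasmic dynein and dynactin, which walk to the minus end, none passed, with NDE1 at -1.02 (limma adjusted p = 0.369) and DYNLRB1 at 0.51 (0.551).

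Between PLC and 97H, 6 tubulins were higher and 4 lower in PLC of the 14 tested, where 44.3% of all tested genes were called. TUBB6 and TUBA1A were higher in PLC by 4.47 and 2.72, and TUBA4A and TUBB3 lower, at -3.67 and -2.92 (limma adjusted p of 0.000151 or less). Of 16 partners of transport kinesins, 4 were higher and 2 lower, a share near that of all genes. MAPK8IP1 (JIP1), an adaptor of kinesin-1, was higher in PLC by 4.45 (limma adjusted p = 4.76e-06), as were KLC4 by 1.41 (0.00221) and KIDINS220 by 0.92 (0.0168), while MAPK8IP3 (JIP3) was lower at -1.46 (0.00848). Of the mitotic partners 3 of 22 were higher in PLC and 0 lower, and of the dynein and dynactin genes 3 of 19 and 0.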

How the data were processed

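RNA-seq was done on total RNA with a TruSeq kit, per the labels' protocols. Per the submitters' processing notes, tools were CASAVA 1.8.2, STAR 2.4.2g1 and featureCounts of Subread, on GRCh38. The deposited values are FPKM computed by the authors; the sources used here do not say how counts became FPKM or whether libraries were scaled. Whole reads could not be recovered, so no count model was run and intervals from depth are not given.

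On log2(FPKM + 1), limma 3.58.1 (R 4.3.3, two-sided, with a variance trend in eBayes) was run for genes averaging 1 FPKM or more. All 10 libraries entered the comparison of the CDK4/6 inhibitor with control, and the 8 of PLC and 97H the others. The line as a block comes from the labels: deviations of control and CDK4/6 inhibitor libraries correlated at 0.901 in Huh7, 0.665 in PLC and 0.818 in 97H. No libraries had identical values. Named with values are called kinesins, otherwise the 4 mitotic and 4 transport kinesins of smallest p, and 2 to 4 partners per list, of which 1 is not reported here. The kinesin groups, partner lists and tests were chosen with earlier results of these data known. Gene positions, GC content and length came from GENCODE 29 (GC for 99.6% of tested genes), promoters from RefSeq GRCh38.p14. In 27 table entries a symbol had become a date, and these entries were left as they stood. Alternatives were the pseudocount, the filter, quantile and median ratio scaling, GC and length trends, the variance prior, the block, all 10 libraries, and each library left out.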

Additional observations from a re-analysis of the deposited data

Results flagged for a closer look

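With the CDK4/6 inhibitor, KIF23 and KIF4A went in opposite directions between lines by 1 or more on the log2 scale each way in at least 1 pair of lines. The log2 ratio of KIF23 to control was -1.29 in Huh7, 1.26 in PLC and -0.98 in 97H, from 11.7 to 4.21, 5.06 to 13.5 and 8.40 to 3.75 FPKM. For KIF4A it was -2.07 in Huh7, 1.24 in PLC and -1.49 in 97H, from 16.1 to 3.07, 5.03 to 13.3 and 45.1 to 15.4 FPKM. With 1 library per line and treatment the difference was not tested. Transcript GC content is 42.3% for KIF23 and 46.4% for KIF4A, and its part in the difference was not tested.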

How the results depend on the processing

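Of 81 results for single genes under 1357 alternatives, 1236 kept direction and side of the threshold, 69 lost the call, 39 gained it and 13 reversed. The count of genes called with the combination against control (83) was 1 with no filter, 153 with quantile normalization, 606 with GC content and length trends removed, 27 with a single prior variance, 261 with all 10 libraries, 0 without the block (no pairing by line) and 0 to 184 without 1 library each. For mitotic kinesins called lower (4) it was 0 with no filter, 8 with GC and length trends removed, 0 without the replicate block and 0 to 5 without 1 library, and the mitotic median with no filter was -1.36, since 13 members then enter. The XPO1 inhibitor against control gave 1 call with no filter, 1 with quantile normalization, 1 with GC and length trends removed and 0 to 1 without 1 library. The combination against the CDK4/6 inhibitor gave 8 with a pseudocount of 0.1, 6 with the filter over the libraries of the fit, 8 with quantile normalization, 5 with median ratio scaling, 47 with GC and length trends removed, 3 with all 10 libraries and 0 to 8 without 1 library. Against the XPO1 inhibitor it gave 4 with quantile normalization, 63 with GC and length trends removed and 0 to 6 without 1 library. Motors called between PLC and 97H (5) were 13 with GC and length trends removed, 10 with all 10 libraries and 3 to 10 without 1 library. Some single genes reversed when 1 library was left out, and their ranges over the libraries follow. KIF13A ran from -0.037 (PLC control left out) to 1.08 for the CDK4/6 inhibitor, -0.47 to 1.57 for the XPO1 inhibitor and -0.30 to 1.75 for the combination against control, and KIF3B from -0.15 to 1.67 (PLC control) for the XPO1 inhibitor. KIF2C ran from -0.70 to 0.019 (97H control) for the XPO1 inhibitor. For the combination against the CDK4/6 inhibitor KIF5B ran from -1.31 to 0.16 (PLC CDK4/6 inhibitor) and KIF13B from -0.0057 (PLC combination) to 0.83. Against the XPO1 inhibitor KIFC2 ran from -0.025 to 1.83 and KIF1C from -0.051 to 0.60 (PLC XPO1 inhibitor). For the interaction KIF21A ran from -1.22 to 0.10 (PLC CDK4/6 inhibitor), KIF5C from -1.08 to 0.068 (PLC control) and KIFC2 from -0.25 to 1.61 (PLC XPO1 inhibitor), and KIFC2 was -0.0033 with GC and length trends removed. Beyond these constructions the cause was not tested. With 1 library per line and treatment and unknown depth, differences at low FPKM are the least certain.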
